A study of Rattus norvegicus with 18 samples.

Results

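The regions described here are 1655 m6A peaks that stood in the bufalin peak list and had no counterpart in the periplocin list. They were chosen by measured values: a peak was taken when its fold enrichment was below 3 and when its span shared no base, on the same chromosome and strand, with any peak of the periplocin list. The bufalin list held 9866 peaks, so these bufalin-only peaks made up 16.8% of it, and they lay on 1415 genes. The name bufalin-only refers to the lists alone. The bufalin list compares bufalin with control, so a bufalin-only peak may also be present in control cells. The cells were H9c2, a wild-type myoblast line from rat myocardium, grown as controls or treated with bufalin or periplocin, and the dose and the time of treatment are not in the labels. Each of the 3 conditions had 3 immunoprecipitated (IP) libraries, pulled down with an antibody to the mark, and 3 input libraries of the RNA before pull-down. The series asked whether m6A takes part in the toxicity of these compounds to heart cells. Bufalin, a bufadienolide from toad venom, and periplocin, a cardenolide with sugars attached, are both inhibitors of the Na/K-ATPase, the ion pump of animal cells. Both peak lists and both RNA tables compare a compound with the same control samples, so bufalin and periplocin values are printed next to each other and were not tested against each other.

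N6-methyladenosine (m6A) is a methyl group that a writer complex built around Mettl3 and Mettl14 places on adenosines of messenger RNA, often in long internal exons and near the stop codon. Fto and Alkbh5 can remove it, and reader proteins of the YTH family bind it and direct the RNA to decay, splicing or translation. In the sequencing assay a peak is a stretch of exon where IP reads are more frequent than input reads, and its fold enrichment is read here as that ratio.

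The marker genes of the labelled cell type were partly present. In the authors' deposited table for bufalin the mean over libraries, in counts divided by size factors, was 72405 for Vim, 2259 for Cdh15, 1037 for Des, 716 for Myod1 and 12.1 for Myog, while Myf5 and Pax7 were at 0. Myf6 was also at 0 and Chrna1 at 7.95. The heart muscle troponin Tnnt2 reached 4293, and the cardiac actin gene Actc1 was at 0. Of the other cardiac markers, Gata4 was at 309, Myh6 at 287, Myh7 and Tnni3 each at 77.6, Nppa at 5.44 and Ryr2 at 1.88. The collagen gene Col1a1 reached 412632, and of the other fibroblast markers Thy1 was at 6686, Pdgfra at 6.48 and Dcn at 0. The smooth muscle actin Acta2 reached 20093. Endothelial markers did not exceed 12.0 and leukocyte markers did not exceed 79.6, and of the epithelial markers Krt8 was at 1100 with the other 3 at 0. In bulk RNA, fewer cells of a type and less RNA per cell cannot be told apart. Nothing in the labels tells separate cultures from repeated libraries, and the authors' RNA p-values measure the spread between these samples, which may be technical. What spread the p-values of the peak lists measure is not known, since no source used here gives the peak caller.

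Bufalin-only peaks were weak and short. Their fold enrichment had a median of 1.52, with quartiles of 1.33 and 1.76 and a range from 1.04 to 2.97, against a median of 1.86 in the 7766 bufalin peaks below 3 that overlapped a periplocin peak. An enrichment under 1.5 was given for 46.5% of them and for 17.4% of the overlapping weak peaks. Their exonic length, the summed length of the exon pieces, had a median of 101 bases against 151, and 1186 of them (71.7%) spanned at most 101 exonic bases, against 29.6%. This limit of 101 bases, also used below, was set at the median of the bufalin-only peaks themselves. The shortest peak of the whole list had 92 exonic bases. A single exon block held 1087 of them (65.7%), 439 were split over 2 blocks and 129 over 3 or more. These values belong to the choice of the peaks, or go along with it, and describe them without a test.

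**Figure D1:**
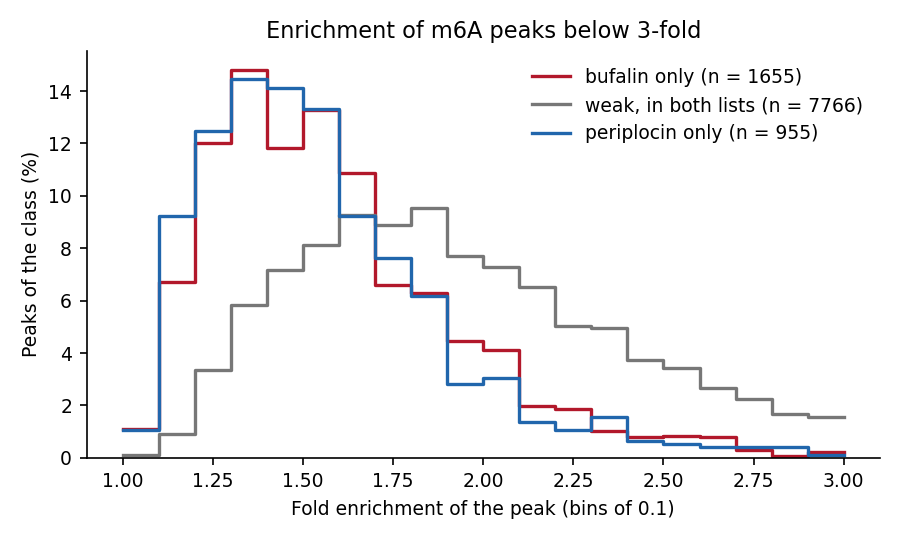
Share of peaks (%) in each bin of fold enrichment, 0.1 wide, for bufalin-only peaks, weak bufalin peaks present in both lists and weak periplocin-only peaks. Bufalin-only peaks (median 1.52) and periplocin-only peaks (median 1.48) sit to the left of the weak peaks in both lists (median 1.86).

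The reverse set had the same form. The periplocin list held 9170 peaks and 970 of them shared no base with a bufalin peak, of which 955 (10.4% of the list) were below 3. Their median fold enrichment was 1.48 and their median exonic length 101 bases, and 73.1% of them had at most 101 exonic bases.

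The share of bufalin-only peaks among all bufalin peaks below 3 was 17.6%, and it changed steeply with the form of the peak. It was 34.1% among peaks of up to 101 exonic bases and 0.984% among peaks of 252 bases or more. It was 61.4% at an enrichment below 1.2 and 3.95% between 2.5 and 3. Among peaks split into 4 equal classes by the RNA level of their gene, it was 26.0% in the lowest class, 19.6% and 14.4% in the next ones and 10.3% in the highest. Peaks of 3 or more exon blocks were bufalin-only in 7.74% of cases, against 20.9% of those with 1 block. By chromosome the share lay between 14.1% (chromosome 12) and 24.3% (chromosome 14). The + strand carried 877 of the bufalin-only peaks and the - strand 778.

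**Figure D2:**
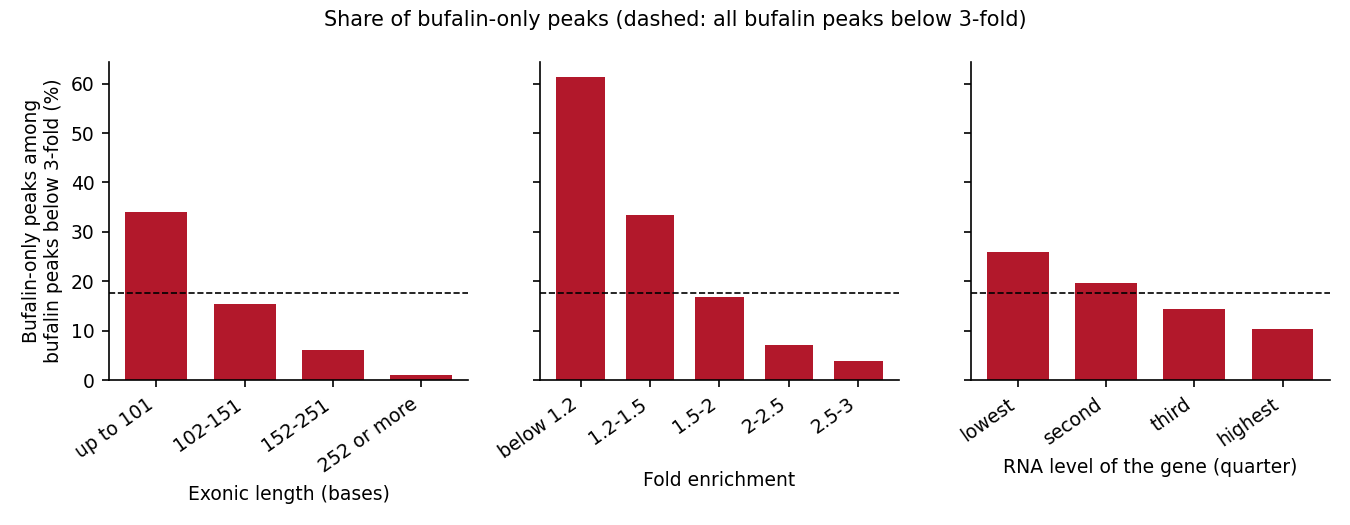
Bufalin-only peaks as a share (%) of all bufalin peaks below 3, by exonic length in bases, by fold enrichment and by RNA level of the gene in 4 equal classes; the dashed line is the share over all of them, 17.6%. The share falls from 34.1% to 0.984% with length, from 61.4% to 3.95% with enrichment and from 26.0% to 10.3% with RNA level.

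Peaks next to the limits show how the choice fell. The 5 just inside the enrichment limit were those of Myh1, a skeletal myosin heavy chain (2.97), Exoc2 of the exocyst complex (2.92), the phosphatase gene Ptp4a1 (2.91), the chromatin accessibility factor Chrac1 (2.91) and Axin2, an inhibitor of Wnt signalling (2.88). The 5 unshared peaks just outside were those of Arhgap35, Galnt4 and Sdhaf2 (each 3), Fam160a2 (3.04) and Nf1 (3.06). Along the genome, the closest bufalin-only peaks lay 48 bases from a periplocin peak, on Bmpr2 (a BMP receptor; chr9:66673300-66673499, + strand, rn6), Mier3, Naa30 and Tprn. At 49 bases followed Arid1a, a subunit of the SWI/SNF chromatin remodeller, Cacnb2, Eif5 and Pias2. On the other side of that limit, peaks on Adamtsl3, Ash1l, Aspm, B3gnt2 and Ccdc171 shared a single base with a periplocin peak and were left out.

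Most bufalin-only peaks lay on genes that also carried a periplocin peak. Such a peak was found on the same gene for 1056 of the 1655, and 599 (36.2%) lay on genes with none. Of the periplocin-only peaks, 34.7% lay on genes without a bufalin peak. The distance to the nearest periplocin peak of the gene, introns included, had a median of 1684.5 bases. It was under 250 bases for 255 bufalin-only peaks (15.4% of all) and under 1000 bases for 460 (27.8%), and 253 were 10000 or more bases away. One bufalin-only peak overlapped a periplocin peak of the opposite strand. For 512 (30.9%) the bufalin-only peak was the sole bufalin peak of its gene, against 26.6% of the overlapping weak peaks.

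**Figure D3:**
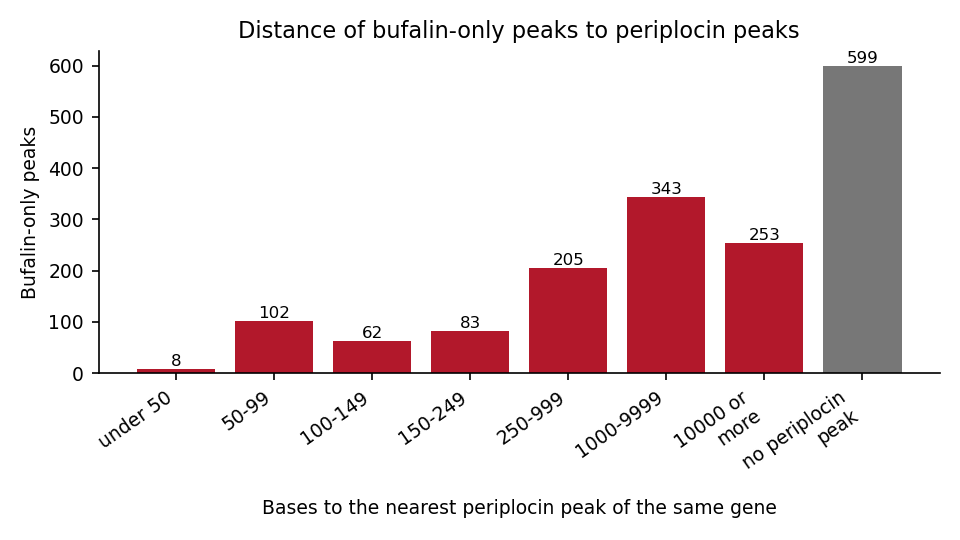
Number of bufalin-only peaks by the distance in bases to the nearest periplocin peak of the same gene (red), and the number on genes with no periplocin peak (grey). Distances under 250 bases hold 255 peaks, and 599 peaks lie on genes without a periplocin peak.

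Genes without a periplocin peak were less abundant. Their median RNA mean in the authors' deposited table for bufalin was 958, against 2346 for genes of bufalin-only peaks that also had a periplocin peak. Over all 1415 genes of bufalin-only peaks the median was 1762, with quartiles of 743 and 3836, and over the genes of overlapping weak peaks it was 2243. The part of RNA level in the choice of peaks was not tested.

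Within a gene, a bufalin-only peak was usually weaker than the peaks common to both lists. A common peak stood on the same gene for 1000 of the bufalin-only peaks, and the bufalin-only peak had the lower enrichment in 797 of them (79.7%), with a median difference of -0.385 from the median common peak. Weak periplocin-only peaks gave 79.9% and -0.365 in the same comparison, and the enrichment limit of 3 applied to these peaks but not to the common ones. There was no one-sided placement along the gene. Of the 1000, 374 lay 5' of every common peak, 392 lay 3' of every one and 234 lay between them. With exactly 1 common peak on the gene, 220 lay 5' of it and 225 lay 3' of it.

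The smallest p-value of enrichment belonged to Arhgdia. Its peak at chr10:109755100-109755199 (- strand, rn6) had an enrichment of 1.76 and a p-value of 2.51e-73 in the authors' deposited list, and no periplocin peak was listed on the gene. The next were the COP9 signalosome gene Cops4 (1.24-fold, p-value 3.16e-28), the splicing factor gene Zcrb1 (1.94-fold, 5.01e-28), the sperm tail and centriole gene Odf2 (1.68-fold, 2.51e-25) and the dynein regulator gene Ndel1 (1.53-fold, 1.58e-23). These small p-values went with ratios between 1.24 and 1.94. The peak over most exon blocks was that of Larp7, which binds the 7SK RNA, with 5 blocks and 395 exonic bases at chr2:231876570-231881903. Ckap2, a spindle protein gene, had 4 blocks and, with 451 bases, the longest peak of the set. The longest ones after it were on Apc (450 bases), the scaffold of the beta-catenin destruction complex, and Notch2 (400 bases).

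Few genes held several bufalin-only peaks. A single one was found on 1214 genes, 169 genes had 2, 27 had 3, and 5 had 4 or more. Prrc2c, a large RNA-binding protein gene, had 5 bufalin-only peaks among 13 bufalin peaks, beside 8 periplocin peaks. Vcan, the matrix proteoglycan versican, had the same numbers. The 5 Vcan peaks stood between chr2:18492051 and chr2:18546007 (- strand, rn6), with enrichments from 1.43 to 2.46 and distances to the nearest periplocin peak from 199 to 33504 bases. Lin54, a DNA-binding subunit of the DREAM cell cycle complex, had 4 among 5 bufalin peaks and 1 periplocin peak. Pogz, a chromatin zinc finger gene, had 4 among 8 bufalin peaks. Nr3c1, the glucocorticoid receptor gene, had 4 among 6, and its first lay 940361 bases from the nearest periplocin peak given that name, so that the name covered 2 distant places on chromosome 18. Myo1c, Pde5a and Zfp397 each had 3 bufalin-only peaks and no periplocin peak. Peaks of 1 gene are not independent. Of 441 bufalin-only peaks on genes with several, 118 (26.8%) carried the same p-value of enrichment as another one of the gene.

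The m6A change with bufalin comes from the same comparison as the peak list and is given as a description. It is a log2 difference in enrichment, and its sign was read as treated over control. Its median was 0.03 over the bufalin-only peaks, with quartiles of -0.17 and 0.23, against -0.03 over the overlapping weak peaks and -0.02 over all bufalin peaks. It was above 0 for 889 bufalin-only peaks (53.7%), below 0 for 761 and at 0 for 5, against 42.9% above 0 in the overlapping weak peaks. Periplocin-only peaks were above 0 in 59.6% of cases in their own comparison. The change lay within 0.25 of 0 for 60.8% of bufalin-only peaks and 81.2% of overlapping weak peaks, beyond 1 for 11 and below -1 for 14. Where the gene also had a common peak, the bufalin-only peak had the higher change in 576 of 1000 cases (57.6%). Weak periplocin-only peaks had it in 351 of 568 cases (61.8%) in their own comparison.

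No bufalin-only peak passed an FDR of 0.05 for the change. The count was 0 of 1655, against 3 of all 9866 bufalin peaks (0.0304%), and the lowest FDR among bufalin-only peaks in the authors' deposited list was 0.65. At an unadjusted p under 0.05 there were 34, of which 12 were higher and 22 lower, against 300 of 9866 in the whole list (3.04%, with 0.77% higher and 2.27% lower). Nothing is read from these counts about the peaks, since the same libraries chose them.

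The smallest p-values of the change, all unadjusted and from the authors' deposited list, stood at Exoc2, Hand2, Cacna1g, Prrc2c and Zfp655. Hand2, a transcription factor of heart development, had a change of 0.56 (p-value 0.000933) in a peak of 2.03-fold at chr16:36371509-36373099 (- strand, rn6), and no periplocin peak was listed for it. Cacna1g, the T-type calcium channel, had a change of 0.98 (p-value 0.00191) in a peak 99 bases from a periplocin peak. Its second bufalin-only peak had a change of 0.51 (p-value 0.356). Camk2g, a calcium- and calmodulin-dependent kinase gene, was at -0.94 (p-value 0.0245). The lowest p-value, 0.000851, went with a change of 0.07 at Exoc2, while a second Exoc2 peak had the lowest change of all, -4.92, with a p-value of 0.00851. The size of the change and its p-value thus did not rank these 2 peaks alike. One of the 5 Prrc2c peaks was at -1.13 (p-value 0.002), and the other 4 lay between -0.26 and 0.23. Entpd1, an enzyme that splits extracellular ATP, was at -3.71 (p-value 0.0389). The highest change among all bufalin-only peaks, 2.13, was at Myh9l1, a gene named as a copy of the myosin Myh9, where reads of both may not be separable, and its p-value was 0.0676. Gsta1, a glutathione transferase gene with close paralogs, had a peak at 1.66 and another at -1.46.

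**Figure D4:**
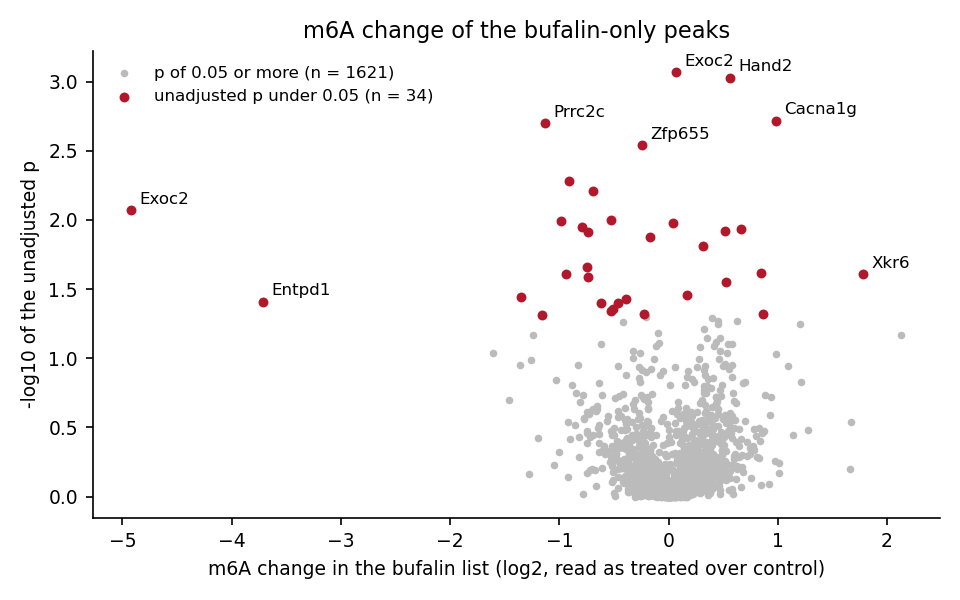
m6A change (log2, horizontal) against -log10 of the unadjusted p (vertical) for the 1655 bufalin-only peaks; the 34 with a p under 0.05 are red. Most points lie within 0.25 of 0, and Exoc2 (-4.92) and Entpd1 (-3.71) stand far to the left.

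The m6A machinery itself carried some of these peaks. The writer list had 25 bufalin peaks, of which 6 (24%) were bufalin-only, against 16.8% over all bufalin peaks. They lay on Mettl3, the catalytic subunit (2.05-fold, chr15:28713971-28714069), Mettl14, its RNA-binding partner (2.09-fold), Wtap, the adaptor (1.52- and 1.71-fold), Virma, a scaffold (1.79-fold), and Pcif1, which methylates the adenosine next to the cap (1.19-fold). Their m6A changes were 0.50 for Mettl3, 0.20 for Mettl14, -0.0014 and 0.63 for Wtap, -0.22 for Virma and -0.16 for Pcif1, and none had an unadjusted p under 0.05. In the authors' deposited table the RNA change of these genes with bufalin was 0.02 ± 0.08 (SE) for Mettl3, 0.08 ± 0.10 for Mettl14, 0.02 ± 0.08 for Wtap, 0.03 ± 0.08 for Virma and 0.11 ± 0.13 for Pcif1. Wtap and Virma had adjusted p of 0.955 and 0.942 in that authors' deposited table, which gives none for Mettl3, Mettl14 and Pcif1. Of 23 peaks on reader genes, 3 (13.0%) were bufalin-only, below that share. These lay on Ythdf3 (1.46-fold), Ythdc1 (1.70-fold) and Igf2bp3 (1.21-fold), with m6A changes of -0.33, -0.02 and -0.01. The eraser genes and the subunits of the sodium and potassium pump had no bufalin peak.

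By gene family the share of bufalin-only peaks varied around 16.8%. Of 40 gene lists with at least 10 bufalin peaks, 20 lay above that value and 20 below. The highest share was 35% in semaphorins and plexins, the guidance ligands and their receptors, with 7 of 20 peaks, and the lowest was 3.57% in the Hippo growth pathway, with 2 of 56 peaks (Lats1 and Tead1). Zinc finger proteins gave the largest number. They had 80 bufalin-only peaks of 321 (24.9%) on 61 genes with a median RNA mean of 953, and 48 of the m6A changes were above 0 and 32 below. Zfp655 had a change of -0.24 (p-value 0.00288) and Zkscan8, with 3 bufalin-only peaks, of up to 1.09 (p-value 0.113). Cytoskeletal linkers, which are long and abundant, had 11 of 116 (9.48%).

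Signalling and chromatin lists lay on both sides of the share over all peaks. Notch signalling had 10 of 44 (22.7%), with the receptors Notch1, Notch2 and Notch3 and the DNA-binding partner Rbpj among them. Wnt signalling had 8 of 33 (24.2%), with the receptors Fzd2, Fzd4 and Lrp6, the inhibitors Apc and Axin2, and the nuclear effector Tcf7l2. TGF-beta and BMP signalling had 6 of 40 (15%), on the receptors Tgfbr2, Tgfbr3 and Bmpr2 and the inhibitors Smad7 and Smurf2. Histone methylation had 18 of 85 (21.2%), and histone acetylation 13 of 58 (22.4%), where Sin3a, a scaffold of deacetylase complexes, had a change of -0.74 (p-value 0.0257). Lower shares were found in chromatin remodellers (9 of 72, 12.5%), DNA methylation (1 of 13, 7.69%) and receptor tyrosine kinases and ligands (2 of 36, 5.56%). Calcium handling had 11 of 47 (23.4%), with the membrane calcium pumps Atp2b1 and Atp2b4 and the calcineurin targets Nfatc3 and Nfatc4 beside Cacna1g. Ribosomal protein genes had 6 of 26 (23.1%), of which 2 were on Rps6, and these genes have many near-identical copies, so their reads are uncertain. Mitochondrial ribosome and respiratory chain genes had 7 of 58 (12.1%), with Mrpl18 at -0.91 (p-value 0.00525) and Mrps22 at -0.51 (p-value 0.0437). Of these 7 changes 6 were below 0, where 761 of all 1655 were, and of the 7 changes on protocadherins, which are cell adhesion proteins, 6 were above 0. The list counts are descriptions and no list was tested.

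Genes with bufalin-only peaks had 4 called RNA changes with bufalin. In the authors' deposited table their log2 change had a median of 0.01, with quartiles of -0.06 and 0.08, against a median standard error of 0.10. That table gives an adjusted p for 591 of the 1415 genes, and 4 passed 0.05, of which 3 rose and 1 fell, where 10 of 3321 genes passed over the whole table (0.301%, with 0.181% higher and 0.12% lower). At an unadjusted p under 0.05 there were 84 (5.94%), above the 5% of 12876 genes but below the 7.70% of genes of overlapping weak peaks and the 7.25% of genes of all bufalin peaks.

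Of the called genes, Dnmt3a, Myh1 and Cxcl12 are described here, and their bufalin-only peaks lay between 516 and 73546 bases from the nearest periplocin peak of the gene. Dnmt3a, a DNA methyltransferase, rose by 0.29 ± 0.07 (log2, SE; adjusted p 0.0101) in the authors' deposited table, with a peak of 1.79-fold and an m6A change of 0.33. Myh1 rose by 0.47 ± 0.11 (adjusted p 0.013) in that authors' deposited table and had 3 bufalin-only peaks with m6A changes of 0.51, -0.07 and 0.19. Cxcl12, a chemokine, had an RNA change of -0.25 ± 0.05 (adjusted p 0.00106) in the authors' deposited table, and its peak of 1.19-fold had an m6A change of -0.05. With periplocin the RNA changes of these genes in the authors' deposited table were 0.09 for Dnmt3a, -0.24 for Myh1 and -0.08 for Cxcl12, and none of them passed.

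More of these genes were called with periplocin. Of 1414 genes with an adjusted p in the authors' deposited table, 18 rose and 1 fell (1.34%), where 67 of 12445 genes passed over the whole table (0.538%, with 0.514% higher and 0.0241% lower). Among the genes of overlapping weak peaks 0.982% passed, and among those of all bufalin peaks 0.938%. The share was higher, 1.90%, both among genes of weak periplocin-only peaks and among genes of bufalin peaks with an enrichment of 3 or more. All 19 genes also carried a periplocin peak, and of the 533 genes with an adjusted p and no periplocin peak none passed, with 25 at an unadjusted p under 0.05 (4.69%). At an unadjusted p under 0.05 there were 122 of the 1414 (8.63%), above the 6.25% of all genes with a p but below the 9.34% of genes of overlapping weak peaks and the 8.89% of genes of all bufalin peaks. Over genes with a p the median RNA mean was 640 in the periplocin table and 663 in the bufalin table. The medians of genes with peaks given above came from the bufalin table and were higher than 663. The part of RNA level in these shares was not tested.

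Of the 18 genes that rose with periplocin, 2 were immediate early genes, from a list with 6 genes of bufalin-only peaks. Another 2 were in the list of the integrated stress and unfolded protein response, with 6 such genes, and 4 in that of cytoskeletal linkers, with 7. The calcium handling list, with 8 such genes, held 1 (Nfat5), and that of receptor tyrosine kinases and ligands, with 2, held 1 (Epha2). The 7 linker genes had a median RNA mean of 45092 in the bufalin table, against 1762 over all genes of bufalin-only peaks. The share of all genes of these lists that rose was not counted, and no list was tested. The lists were chosen with earlier results of these data known, so nothing is read from these counts. The early genes were Dusp1, a MAP kinase phosphatase (0.51 ± 0.08, adjusted p 7.62e-07 in the authors' deposited table), and Klf4, a transcription factor (0.46 ± 0.12, adjusted p 0.0278). The stress genes were Ppp1r15a and Ppp1r15b, which direct the dephosphorylation of eIF2-alpha, at 0.78 ± 0.15 and 0.26 ± 0.05 in the authors' deposited table. The linkers were Plec (0.28 ± 0.05), Ahnak (0.24 ± 0.04), Dst (0.19 ± 0.04) and Macf1 (0.16 ± 0.03) in the authors' deposited table. Outside these lists were Trib1, a pseudokinase (0.51 ± 0.12, adjusted p 0.00404), Zfand2a, a proteasome partner induced by arsenite (0.56 ± 0.11), and Akap9, an anchoring protein for protein kinase A (0.16 ± 0.04), in the authors' deposited table. The largest rise was that of Eid3, 1.14 ± 0.25, and Nfat5, the transcription factor of the osmotic response, rose by 0.21 ± 0.04. Vof16, Tsc22d1, Pik3c2a, Sfswap and Epha2 were the other risers, from 0.20 to 0.83, and Steap2, a metal reductase, was at -0.40 ± 0.08 (adjusted p 0.000909).

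With bufalin, the RNA changes in the authors' deposited table were -0.14 ± 0.12 for Dusp1, 0.46 ± 0.23 for Ppp1r15a and 0.13 ± 0.08 for Ppp1r15b, with adjusted p of 0.743, 0.508 and 0.675. They were 0.13 ± 0.15 for Klf4, -0.12 ± 0.15 for Trib1 and 0.19 ± 0.14 for Zfand2a, for which that authors' deposited table gives no adjusted p, so no call was possible. The difference between the compounds was not tested. The bufalin-only peaks on these genes were weak, for example 1.22-fold at Dusp1 (chr10:16972635-16972783, + strand, rn6; 98 bases from a periplocin peak) and 1.95-fold at Klf4 (147 bases). Ppp1r15a had 2 bufalin-only peaks, of 1.51- and 2.27-fold, with m6A changes of 0.05 and -0.10. Other early genes with a bufalin-only peak were Fos (1.74-fold), Jund (2.57-fold), Dusp6 (1.70-fold) and Nr4a3 (1.67-fold), and their m6A changes were 0.12, -0.34, -0.13 and 0.13. In all, 6 of 36 bufalin peaks on immediate early genes (16.7%) were bufalin-only, near the 16.8% over all bufalin peaks.

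**Figure D5:**
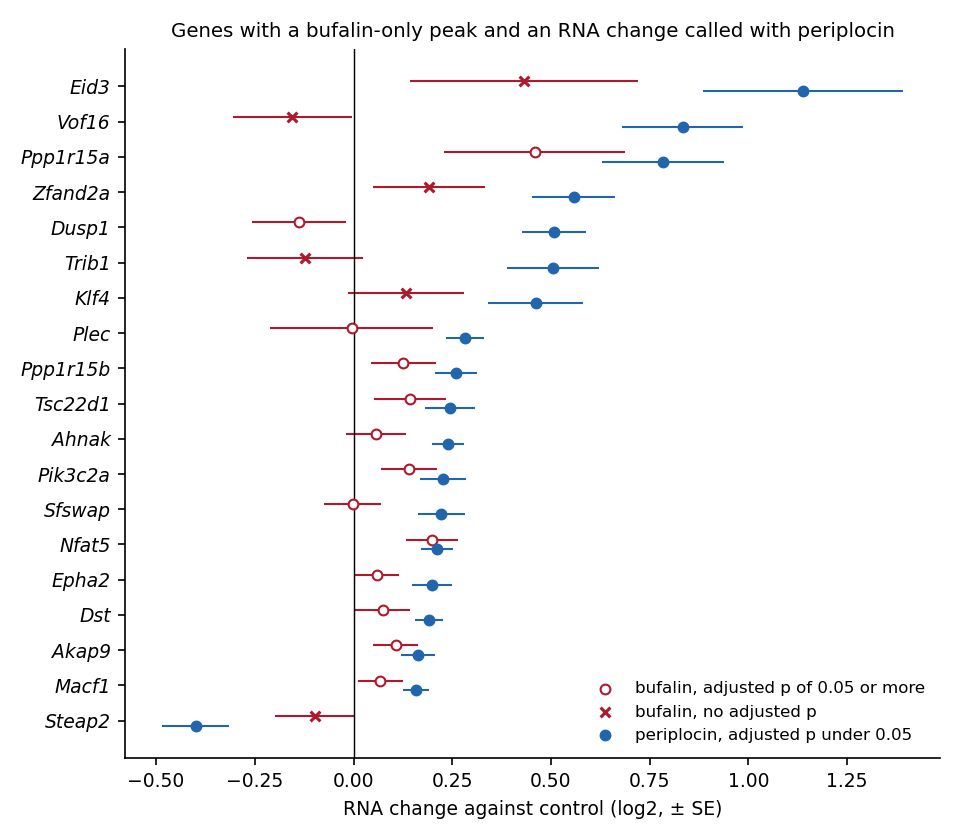
RNA change against control (log2, with bars of 1 SE) with bufalin (red) and periplocin (blue) for the 19 genes of bufalin-only peaks with an adjusted p under 0.05 with periplocin; filled points passed and crosses have no adjusted p in the bufalin table. The 18 genes that rose with periplocin lie between 0.16 and 1.14, and Steap2 lies at -0.40. With bufalin 13 of the 19 genes have an adjusted p, none of these passed, and the other 6 (Eid3, Klf4, Steap2, Trib1, Vof16 and Zfand2a) could not be called.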

How the data were processed

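Each deposited value belongs to a peak or gene and a comparison, not to a library, and library depth is not analysed here. The submitters' processing notes name HISAT2, StringTie, DESeq and the build rn6, without versions. No source used here gives the peak caller. In the deposited peak lists, the fold enrichment is a ratio, read as IP over input; the log10 columns hold, per the file headers, p and FDR for enrichment and for the change. The change is a log2 value in the deposited lists. Scores in the fifth column of the authors' peak lists equal the p-value of enrichment. In the deposited RNA tables the signal is a mean over libraries of size-factor normalized counts, judged by the column names of the authors' DESeq2 output; the log2 fold changes, standard errors, Wald score, p-values and adjusted p-values are the authors'. They do not say if input or IP libraries were used.

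Peak starts were read as 0-based and printed from 1. Overlap meant at least 1 shared base of the spans, on the same strand. Calls are the authors' FDR or adjusted p under 0.05, and no test was run over the peaks. The direction of the RNA change was checked through the control means that both tables imply: reading both fold changes with treated as numerator, they differed between tables by a constant (median absolute deviation 0.000242 on the log2 scale over 10602 genes), and by 0.0745 or more with any other signs. The lists give no direction for the m6A change; over 4787 peaks identical in both lists, the log2 ratio of enrichments followed the difference of changes (r = 0.59), a positive relation when it is read as treated over control.

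The peaks, the 43 gene lists and the tests were chosen with earlier results of these data known. Named were the called peaks or genes; the 5 peaks just inside and outside the limit, with the smallest p-value or closest to a periplocin peak; those with most blocks; the genes with most peaks; up to 4 peaks per list; and all on m6A, pump and early response genes. Others named (peaks with an unadjusted p under 0.05, the longest, and further list genes) were chosen after their values were seen. The overlap code was tested on simulated data. The tools were pandas 2.3.3 with numpy 2.4.6 in Python 3.11.15, scipy 1.17.1 for intervals, and matplotlib 3.10.9 for plots. Alternatives covered the overlap, the enrichment limit, thresholds and the peaks kept. Some items that the rule takes are not reported here, while all counts include them.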

Additional observations from a re-analysis of the deposited data

How the results depend on the processing

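The number of bufalin-only peaks lay between 1545, when periplocin peaks within 100 bases also counted as shared, and 1722, when a shared peak had to cover 0.5 of the shorter span. It was 1655 by exon blocks, 1654 without strand, 1618 and 1668 with enrichment limits of 2.5 and 3.5, and 1640 and 1673 with an FDR of enrichment under 0.01 in the bufalin or the periplocin list. Of 64 alternative values, 60 kept their size or their call. A count kept its size within a fixed ratio, and another value within a 95% interval that treats peaks or genes as independent. Many of the 64 could not move. Exon blocks chose the same peaks, and with a lowest FDR of 0.65 for the change, no FDR limit tried and no part of the peaks could alter a count of 0. The number 60 is therefore no measure of stability. At an unadjusted p under 0.05 the count of changed peaks went from 0 to 12 higher and 22 lower. With peaks of 1 exon block only, the median m6A change was 0.0426 in place of 0.026 and the median RNA mean of the genes was 1560 in place of 1762; the cause was not tested. Called genes with bufalin were 5 in place of 4 when p-values were adjusted anew over all genes, and with periplocin 19 in both cases. No paired analysis was possible because the files hold comparisons and no value per sample, and for the same reason no replicate could be left out. The files give no depth per library, so its part in which peaks were called was not tested.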

Other observations

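Of 445 bufalin peaks with an enrichment of 3 or more, 26 (5.84%) shared no base with a periplocin peak, and of 371 such periplocin peaks, 15 (4.04%) shared none with a bufalin peak. The 26 included Myocd, a partner of serum response factor in heart and smooth muscle (3.38-fold), Srf, that factor itself (4.20-fold, m6A change 0.32, unadjusted p 0.049), Slmap, a membrane protein of muscle (3.11-fold), and Ppp3ca, the catalytic subunit of calcineurin (4.50-fold). The highest enrichments among them, in the authors' deposited list, were 13.3 at Rrn3, 12.0 at Map3k7 and 11.3 at Cstf2, each over 2 exon blocks with introns between. Of these 26 peaks, that of Smarcb1, on an unplaced sequence, passed an FDR of 0.05 for the change in the authors' deposited list (4.89, FDR 0.0138). Myocd and Ppp3ca had unadjusted p of 0.738 and 0.885 for the change in that list, against 0.00316 at a Tpp2 peak and 0.00389 at Wbp11. The genes named here were chosen after their values were seen and do not represent the 26.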
